A study of Populus euphratica with 12 samples.

Results

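Lanceolate (La) leaves of Populus euphratica were compared with linear (Li) leaves, the leaf type that comes before them as the tree grows. The comparison used 6 of the 12 small RNA samples of the study, the samples labelled La1, La2 and La3 against those labelled Li1, Li2 and Li3, and its direction was La over Li. All samples were young leaves of this desert poplar from a single locality. Li leaves came from trees 0 to 3 years old and La leaves from trees 4 to 6 years old, with no treatment or genetic change named for either group, so leaf shape and tree age changed together and cannot be told apart here. The other 6 samples, ovate (Ov) leaves of trees 8 to 12 years old and broad-ovate (Bo) leaves of trees over 20 years old, entered the estimate of the spread and are named only where a La/Li difference is set beside them. The labels call the 3 samples of a group biological replicates without saying whether each was a separate tree, so the P values measure the spread between these samples. The files hold no mRNA, so the tissue was not checked against marker genes.

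MicroRNAs (miRNAs) are short RNAs cut from hairpin precursors. In plants they guide the cleavage, or block the translation, of mRNAs that match them closely, and many plant targets are transcription factors of leaf development or enzymes and transporters of nutrient uptake. A family is a set of miRNAs of nearly the same sequence made from different precursors, and its members usually share targets. The roles given below are those known from Arabidopsis thaliana, except where poplar is named.

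The values are RPM, the reads of a miRNA scaled so that the 257 listed miRNAs of a sample add up to 1000000. They rest on 268012 (La2) to 435399 (La1) reads per sample, and a single read was worth 2.30 RPM in La1 and 3.73 RPM in La2. From 188 to 205 miRNAs had a read in a sample, and 155 had one in all 6. The 217 miRNAs that averaged 1 RPM or more across these 6 samples were tested. The other 40 had means of at most 0.787 RPM. Differences were tested with limma on log2(RPM + 1), 2-sided, with all 12 samples in the estimate of the spread, and every log2 value below is a difference on that scale. At few reads it depends on the added 1: for ptc-miR3627b it was 3.55, but 4.70 with 0.1 added and 2.20 with 10. The fitted fold can lie above or below the La/Li ratio of pooled reads (11.7 against 6.24 for ptc-miR3627b, 5.37 against 6.36 for ptc-miR408-3p). The threshold was an unadjusted P of 0.05. At this threshold 10.85 of 217 miRNAs would pass by chance, so Benjamini-Hochberg adjusted values are given as well, and "rose" and "fell" are kept for miRNAs and families that passed the adjusted threshold of 0.05. Those called higher or lower, with an adjusted p above 0.05, passed the unadjusted threshold only.

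Between Li and La leaves 32 of 217 miRNAs (14.7%) passed the unadjusted threshold, 18 higher (8.29%) and 14 lower (6.45%) in La. After adjustment 4 remained (1.84%). The sulfate-responsive ptc-miR395b and the phosphate-responsive ptc-miR399f fell (0.922%), and ptc-miR6462c-5p and the predicted miRNA NW_011500334.1_29125 rose (0.922%). This count of 4 depended on single libraries: it was 10 without Li1, 1 without La2, and 2 without Li2, without La1 or without La3. For 41 miRNAs (18.9%) the 3 La and the 3 Li values did not overlap, with La above Li for 25 (11.5%) and below for 16 (7.37%), and 22 of the 32 were among them. Of the 32, 12 passed the unadjusted threshold in every alternative counted, which did not leave out Ov or Bo samples, and 20 missed it in at least 1. The median difference over all tested miRNAs was 0.08 on the log2 scale, and 117 of 217 were positive. In bulk samples such as these, fewer cells that make a miRNA and less of it per cell cannot be told apart.

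**Figure D1:**
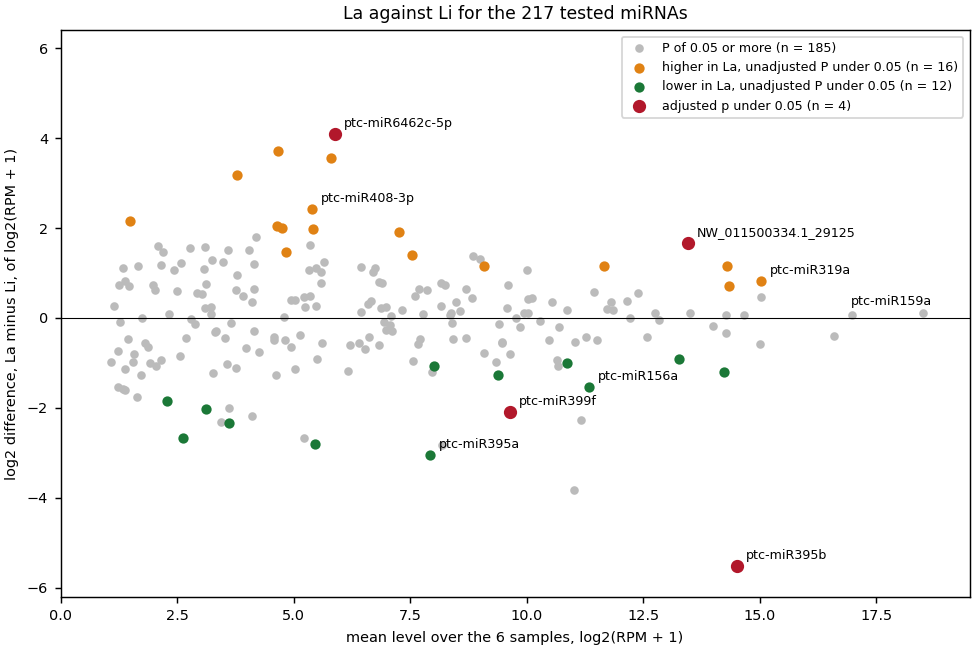
Each point is 1 of the 217 tested miRNAs, with its mean level over the 6 samples as log2(RPM + 1) on the x axis and its La minus Li difference on the y axis. The 4 miRNAs past the adjusted threshold are red, the 16 other higher ones orange and the 12 other lower ones green, and ptc-miR395b lies apart at the bottom right, at -5.51 and an abundant level.

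Families were also tested as sums of their annotated members, since the sources used here do not say how reads that fit several members were counted. Of 64 families, 16 (25%) passed the unadjusted threshold, 10 higher (15.6%) and 6 lower (9.38%) in La. The adjusted threshold was passed by 4 (6.25%): miR395, miR399 and miR156 fell (4.69%) and miR6462 rose (1.56%). The La and Li sums did not overlap for 14 families (21.9%), with La above for 9 (14.1%) and below for 5 (7.81%). Of 37 families listed for their known roles 33 could be tested, and 8 passed the unadjusted threshold: miR395, miR399, miR156 and miR390 on the lower side and miR408, miR162, miR319 and miR475 on the higher side. The adjusted family count of 4 was 7 without Li1, 2 without La2, and 1 without Li2 or without La1.

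**Figure D2:**
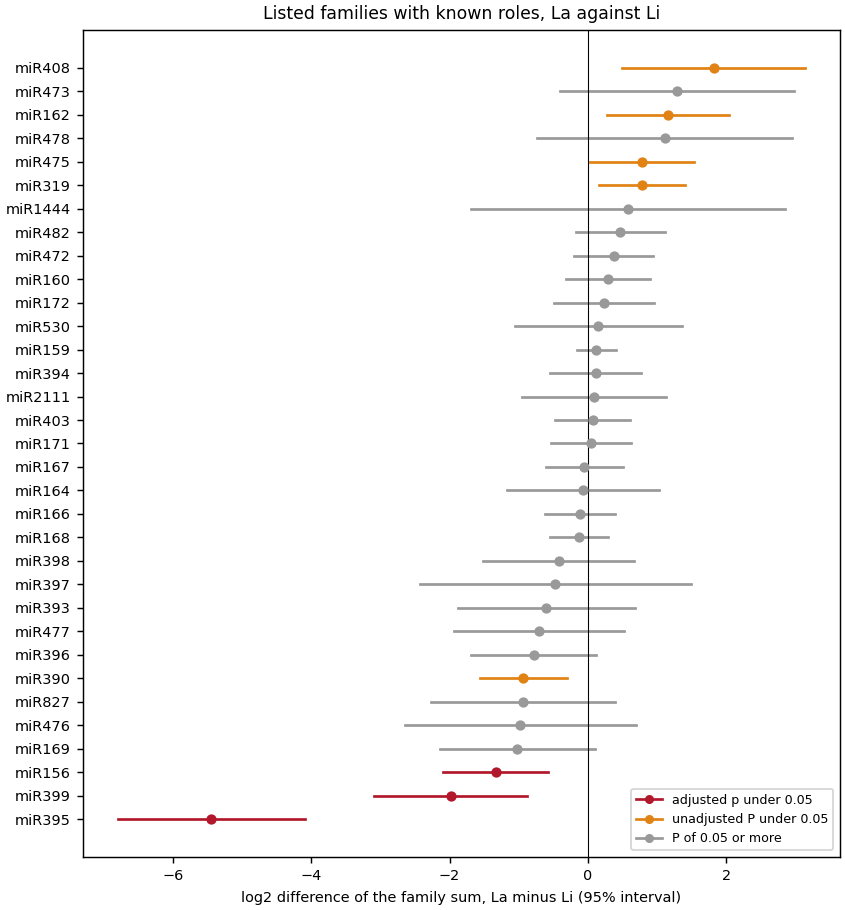
Each line is a family listed for its role, with the La minus Li difference of its summed RPM on the log2 scale (point) and the 95% interval from limma (bar). The miR395, miR399 and miR156 sums (red) lie below 0 with their intervals, at -5.45, -1.99 and -1.33, and 5 more families (orange) have intervals clear of 0.

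The steepest falls were in families that respond to nutrients. The miR395 family is induced when sulfate is scarce and targets ATP sulfurylases and a sulfate transporter, and its summed level fell by 5.45 on the log2 scale (SE 0.62, adjusted p = 6.3e-05 from limma). In Li1, Li2 and Li3 ptc-miR395b was at 9775, 64462 and 63873 RPM, and in La1, La2 and La3 at 537, 1082 and 725 RPM. The groups did not overlap, and Li1, the lowest Li sample, was still far above La2, the highest La sample. Li1 also had the fewest reads of the Li samples (296164), and the part of depth in its level was not tested. The difference was -5.51 (standard error 0.62, adjusted p = 0.00012 from limma), a fall of 45.6-fold (95% interval 18.1 to 115). Without Li1 it was -6.42. Its adjusted p stayed between 7.4e-06 and 0.0094 under every alternative counted, and it was the only miRNA to pass the adjusted threshold in each of them.

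The miR395 family took 4.65% ± 3.17 (SD, n = 3) of the reads of Li leaves and 0.0830% ± 0.0312 (SD, n = 3) of those of La leaves. In Li1 ptc-miR395b alone was 0.977% of the reads (95% Wilson interval 0.943% to 1.01%), against 6.45% (6.37% to 6.52%) in Li2, a gap far beyond counting error. These and all later intervals on reads cover counting error only. For the scarcer ptc-miR395a the Li samples held 105, 472 and 730 RPM and the La samples 32.2, 93.3 and 19.4 RPM. Again Li1 was the lowest Li sample and no La value reached it. This second member was lower by 3.05 on the log2 scale (SE 0.85, adjusted p = 0.097 from limma), and by 2.49 (without Li3) to 3.88 (without Li1) with each sample left out, with adjusted p between 0.040 and 0.29 over the alternatives. The names do not show whether reads of ptc-miR395b could also have been counted for ptc-miR395a, so the split between them is uncertain.

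ptc-miR399f belongs to the family that is induced by phosphate shortage and moves in the phloem to repress PHO2, a ubiquitin-conjugating enzyme that limits phosphate uptake. It was at 902, 1080 and 1882 RPM in the Li samples and at 232, 198 and 502 RPM in the La samples, and the highest La value, in La3, lay below the lowest Li value, in Li1. It fell by 2.10 on the log2 scale (SE 0.50, adjusted p = 0.0496 from limma), or 4.29-fold (95% interval 2.05 to 9.00). The adjusted p was close to the threshold and rose above it in 9 of the 17 alternatives, up to 0.18 without Li3. The family sum fell by 1.99 (SE 0.51, adjusted p = 0.035 from limma, up to 0.10 over the alternatives), with ptc-miR399f making up 95.3% of it. Its 3 other tested members were scarce: ptc-miR399i, ptc-miR399e and ptc-miR399d differed by -0.49, 0.48 and 0.26, none past the threshold.

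The rest of this group of 22 tested nutrient and stress miRNAs, which also holds the miR169 family (repressors of NF-YA transcription factors), miR827 (SPX-domain proteins) and miR2111 (Kelch-repeat F-box proteins), had 1 more member past the unadjusted threshold. ptc-miR169i, chosen after its values were seen, had 8, 6 and 5 reads in the Li samples and 1, 0 and 5 in the La samples, which overlap, and its pooled Li/La read ratio was 3.10 (95% exact interval 1.19 to 9.49). Most of its La reads came from La3, without which the ratio was 11.7 from a single La read, and its call was lost in 7 of 17 alternatives, among them those without Li1, Li2, La1 or La2. In all, 4 of the 22 were lower (18.2%, against 14.7% of all tested in either direction and 6.45% lower), 0 higher, and the median of the group was -0.52 against 0.08 for all tested miRNAs. The 14 tested miR169 members had a median of -0.50, and their sum was 253 ± 96.3 RPM in Li and 122 ± 39.6 in La (SD, n = 3), lower by 1.02 without passing the threshold (95% interval -2.14 to 0.10 in limma). Its largest part, 38.0%, was the 3p arm ptc-miR169n-3p.

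**Figure D3:**
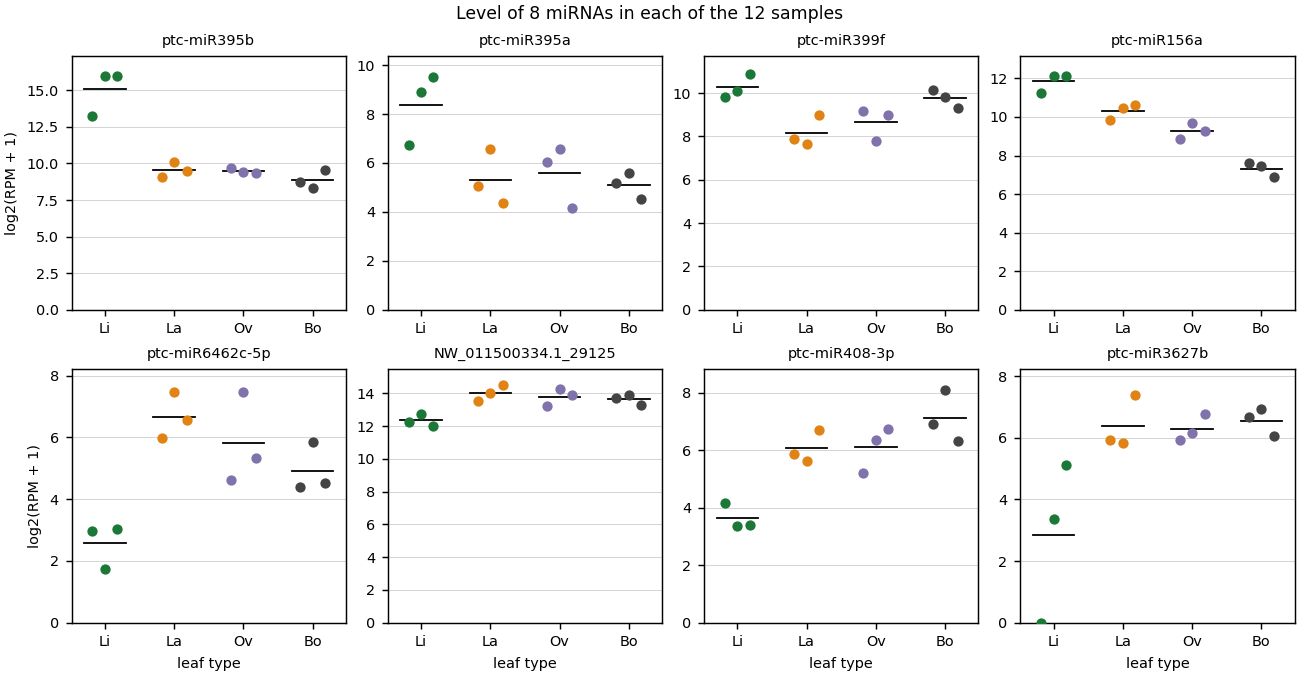
Points are single samples of the 4 leaf types and bars are means, both as log2(RPM + 1), for 8 miRNAs. In every panel the 3 La points lie on 1 side of the 3 Li points, below them for ptc-miR395b, ptc-miR395a, ptc-miR399f and ptc-miR156a and above them for the other 4. This was fixed by the choice, since all 8 met a naming rule that requires no overlap, whereas 41 of 217 tested miRNAs (18.9%) had none.

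Of the phase-change families miR156 fell, and no member of miR172 passed. miR156 represses SPL transcription factors and is known for its high level in juvenile shoots, while miR172 represses AP2-like factors and is known to rise as plants mature. The summed miR156 level was 3265, 5773 and 5514 RPM in the Li samples and 1509, 1866 and 2301 RPM in the La samples, without overlap. The sum fell by 1.33 on the log2 scale (SE 0.35, adjusted p = 0.035 from limma), or 2.52-fold, with adjusted p up to 0.11 over the alternatives. ptc-miR156a, 76.0% of the sum, was at 2451, 4468 and 4547 RPM in Li and 923, 1407 and 1585 RPM in La. As a single miRNA it was lower by 1.53 (SE 0.40) and missed the adjusted threshold (adjusted p = 0.079 from limma). The Li1 sample was the lowest of its group here as for miR395.

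All 4 miR156 members were on the lower side, and of these ptc-miR156g also did not overlap, at 807, 1293 and 959 RPM in Li against 583, 459 and 713 in La (difference -0.80, 95% interval -1.68 to 0.09 in limma). The remaining members, ptc-miR156k and ptc-miR156l, had 6 or fewer reads in the Li samples together and at most 2 in the La samples together, and neither passed. For miR172 the sum was 4837 ± 409 RPM in Li and 5860 ± 1696 in La (SD, n = 3), a difference of 0.24 (95% interval -0.49 to 0.96 in limma). Its most abundant member, ptc-miR172a, was at 3562, 3835 and 4318 RPM in Li and 5572, 6362 and 3656 in La, and La3 lay within the Li range. Of the 6 miR172 members only 2 were positive, and their median was -0.63. ptc-miR172g-3p differed by -1.21 (95% interval -2.52 to 0.09 in limma). The scarce ptc-miR172h-5p differed by -1.99 (-4.22 to 0.23), without overlap. Over the 10 phase-change miRNAs the median difference was -0.87, against 0.08 for all tested miRNAs. In this median the scarce ptc-miR156k, ptc-miR156l and ptc-miR172h-5p count as much as the abundant ptc-miR172a, which differed by 0.38. By the unadjusted threshold 1 was lower (10%, against 14.7% of all tested in either direction and 6.45% lower) and 0 were higher.

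miR319 and the closely related miR159 have different targets. miR319 represses TCP transcription factors that stop cell division at the margins of growing leaves, and miR159 represses GAMYB factors. The summed miR319 level was 32631, 45431 and 38078 RPM in Li and 80009, 40155 and 89200 RPM in La. Samples La1 and La3 stood above all Li samples, whereas La2 lay within their range. The difference was 0.78 (SE 0.29, adjusted p = 0.095 from limma), and it missed the unadjusted threshold with RLE scaling, a scaling by the median miRNA (0.71), without a variance trend, and without Li1, La1 or La3 (0.56). ptc-miR319a, at 20256, 26432 and 23072 RPM in Li and 46968, 24312 and 59724 in La, was higher by 0.82 (adjusted p = 0.27 from limma). ptc-miR319e, at 12318, 18898 and 14922 RPM in Li and 32869, 15760 and 29292 in La, was higher by 0.71 (adjusted p = 0.28 from limma). In both, La1 and La3 were above all Li samples and La2 was not. The unadjusted threshold was missed in 7 of 17 alternatives by ptc-miR319a and in 9 by ptc-miR319e. For both these included the fits without Li1, Li3, La1 or La3. The scarce ptc-miR319i differed by 0.80 and did not pass. As a share of reads the family was 3.87% ± 0.642 in Li and 6.98% ± 2.61 in La (SD, n = 3).

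ptc-miR159a, the most abundant miRNA of these leaves, did not pass. It was at 331472, 367760 and 365510 RPM in Li and 385894, 400180 and 368465 RPM in La. Every La value was above every Li value, but La3 exceeded Li2 by little, and the difference of 0.12 (95% interval -0.24 to 0.48 in limma) was within the spread. Its share of the reads was 35.5% ± 2.03 in Li and 38.5% ± 1.59 in La (SD, n = 3).

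Among the leaf polarity families miR390 was lower, and no miR166 member passed. miR390 starts the production of TAS3 trans-acting siRNAs, which repress auxin response factors on the upper side of the leaf, and miR166 represses class III HD-ZIP factors on the lower side. ptc-miR390a was at 9461, 13122 and 15753 RPM in Li and at 7841, 4791 and 7813 RPM in La, and all La values lay below all Li values. It was lower by 0.91 (SE 0.32, adjusted p = 0.18 from limma), though not past the threshold without Li3 or La2 (-0.68). ptc-miR390d-3p was at 3066, 2411 and 1909 RPM in Li and 1902, 959 and 945 RPM in La, where La1 was just under Li3. Its difference of -1.01 (SE 0.43, adjusted p = 0.28 from limma) lost the threshold without Li1, Li2, La2 or La3. The family sum was lower by 0.94 (SE 0.29, adjusted p = 0.056 from limma).

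The sum of the 3 miR166 members was 237730 ± 50822 RPM in Li and 217426 ± 33571 in La (SD, n = 3), a difference of -0.12 (95% interval -0.63 to 0.39 in limma). ptc-miR166a was at 126892 ± 23390 RPM in Li and 131200 ± 6899 in La, and ptc-miR166n at 110364 ± 27960 and 85875 ± 29686 (SD, n = 3), differences of 0.06 and -0.39. The former changed sign with RLE scaling and without Li3.

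The miR396 family represses growth-regulating factors, which promote cell division in young leaves. ptc-miR396c, the largest member, was at 35572, 21709 and 20267 RPM in Li and 15797, 16660 and 4914 RPM in La. The groups did not overlap, Li1 was the highest and La3 the lowest. It was lower by 1.20 (SE 0.54, adjusted p = 0.32 from limma), and not past the threshold without Li1 (-0.94), Li2, Li3 or La3 (-0.62). The family sum, 35840 ± 13766 RPM in Li and 20984 ± 8150 in La (SD, n = 3), overlapped and did not pass (difference -0.78, 95% interval -1.69 to 0.12 in limma). Of its 6 members 3 were on the higher side, among them ptc-miR396g-3p with a difference of 1.03, no overlap and a 95% interval of -0.22 to 2.28 in limma. In the miR171 family, which represses GRAS factors of the meristem, 0 of 8 passed (against 14.7% of all tested).

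In the miR160, miR167 and miR393 families, which repress auxin response factors and auxin receptors, 1 of 13 auxin-related miRNAs passed the unadjusted threshold (7.69%, against 14.7% of all tested). This was ptc-miR167f-3p (chosen after its values were seen), at 196, 49.1 and 9.64 RPM in Li and 404, 78.4 and 170 RPM in La, overlapping groups with a difference of 1.90 (adjusted p = 0.33 from limma). It was 0.83 without Li3, 1.30 without La1 and 2.93 without Li1, and missed the unadjusted threshold in 10 of 17 alternatives, among them those without Li2, Li3, La1 or La3. The family sums differed by 0.29 for miR160 (95% interval -0.32 to 0.90) and -0.06 for miR167 (-0.61 to 0.50, limma). The leaf margin families act on the boundary genes of the NAC class (miR164) and on an F-box protein (miR394). Of their miRNAs 0 of 4 passed (against 14.7% of all tested).

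The copper-responsive miR408, which targets plantacyanin-like copper proteins and laccases, was higher in La. ptc-miR408-3p was at 16.9, 9.35 and 9.64 RPM in Li and 57.4, 48.5 and 104 RPM in La, from 4 or 5 reads in each Li sample and 13 to 43 in each La sample. No values overlapped, and the pooled La/Li read ratio was 6.36 (95% exact interval 3.52 to 12.5). The difference was 2.42 (SE 0.64, adjusted p = 0.079 from limma) and passed the unadjusted threshold in all 17 alternatives. Its other arm, ptc-miR408-5p, had 1 to 7 reads per sample and a difference of 0.62 that did not pass. In the other copper-related families 0 of 3 tested members passed (against 14.7% of all tested). ptc-miR398a, ptc-miR398b and ptc-miR397a differed by -0.96 (95% interval -2.76 to 0.84), -0.11 (-1.21 to 0.99) and -0.47 (-2.49 to 1.55) in limma.

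ptc-miR162a targets DCL1, the enzyme that cuts miRNAs from their precursors. It was at 10366, 8995 and 15705 RPM in Li and 15094, 21936 and 48841 RPM in La. La1 lay below Li3 and La3 far above the rest. The difference was 1.15 (SE 0.41, adjusted p = 0.19 from limma). Without La3 it was 0.68, and it missed the unadjusted threshold without Li1, Li2 or La3. In the other silencing families 0 of 4 members passed (against 14.7% of all tested). The sums of miR168 (AGO1) and miR403 (AGO2) differed by -0.13 (95% interval -0.55 to 0.28) and 0.07 (-0.47 to 0.60) in limma. Of the miR168 sum 68.9% was the 3p arm ptc-miR168a-3p, which differed by -0.19, and the 5p arm differed by -0.04.

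Families that act on disease resistance genes of the NBS-LRR class, miR472 and miR482, had 0 of 8 members past the threshold (against 14.7% of all tested). Of the 8 differences 7 were positive, against 117 of the 217 tested, and the median was 0.43 against 0.08. The 8 are members and arms of these families in the same samples, so their signs are not independent. The abundant ptc-miR472b was at 25742, 22160 and 34740 RPM in Li and 30583, 32140 and 54158 RPM in La, which overlap (difference 0.48, 95% interval -0.18 to 1.13 in limma). Among families first known from poplar, miR475, which targets PPR genes there, had a summed level of 1928, 2247 and 3048 RPM in Li and 2701, 4030 and 6213 RPM in La. La1 was within the Li range. The sum was higher by 0.79 (adjusted p = 0.17 from limma), and by 0.48, past no threshold, without La3. It also missed the unadjusted threshold without Li1, Li2 or La2 and with either other scaling, and 0 of its 4 members passed alone. In ptc-miR477d-5p (chosen after its values were seen) the Li samples held 8, 3 and 2 reads and the La samples 1, 0 and 2, with a pooled Li/La read ratio of 4.25 (95% exact interval 1.17 to 23.2). The ratio was 2.21 without Li1 and 8.03 without La3, and the call was lost in 5 of 16 alternatives, among them those without Li1 or La2.

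Annotated miRNAs outside the listed families, most of them known only from poplar and without a role given here, held 10 of the 32: 7 higher and 3 lower among 36 tested (27.8%, against 14.7% of all tested). ptc-miR6462c-5p led them. It was at 6.75, 2.34 and 7.23 RPM in Li and 62.0, 175 and 94.5 RPM in La, from 2, 1 and 3 reads against 27, 47 and 39. No La sample came near a Li sample. It rose by 4.09 on the log2 scale (SE 0.80, adjusted p = 0.019 from limma), and the pooled La/Li read ratio was 19.2 (95% exact interval 8.56 to 53.5). The adjusted p passed 0.05 without Li2 (0.097) and, narrowly, without La1, La2 or La3, and with the replicate block on only the 6 samples (0.10). ptc-miR6462e was also higher, at 3.38, 11.7 and 16.9 RPM against 27.6, 59.7 and 36.4, without overlap (difference 2.01, adjusted p = 0.28 from limma). It missed the unadjusted threshold without Li1 (1.42) or La2. The miR6462 sum rose by 3.00 (SE 0.68, adjusted p = 0.023 from limma, 0.0996 without Li2).

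Others on the higher side rested on few Li reads. ptc-miR3627b had 0, 4 and 14 reads in Li and 26, 15 and 69 in La. Its pooled La/Li read ratio was 6.24 (95% exact interval 3.77 to 10.9), and the fitted difference of 3.55 (adjusted p = 0.097 from limma) was 2.14 without Li1 and 4.70 without Li3. ptc-miR6424 had 4, 0 and 0 reads in Li and 7, 5 and 40 in La, a pooled ratio of 13.3 (4.88 to 50.5). The groups did not overlap, but most of its La reads came from La3, and its difference of 3.72 (adjusted p = 0.13 from limma) ranged from 2.91 without La3 to 5.0 without Li1. ptc-miR6438a had 0, 1 and 2 reads in Li and 10, 6 and 10 in La, a pooled ratio of 8.84 (2.71 to 45.7). Its 3 La values, 23.0, 22.4 and 24.2 RPM, were nearly equal, and the difference of 3.17 (adjusted p = 0.14 from limma) missed the unadjusted threshold without Li1 (2.46).

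ptc-miR6471 and ptc-miR7827, chosen after their values were seen, complete the higher ones. The former was at 564, 222 and 275 RPM in Li and 650, 720 and 815 RPM in La, with all La values above Li1 (difference 1.15, adjusted p = 0.22 from limma). It missed the unadjusted threshold without Li2 (0.88) or Li3. The latter had 0 reads in all Li samples and 2, 1 and 1 in La, too few for a fold. Of the 3 lower ones, also chosen after their values were seen, ptc-miR6427-5p was the best covered, at 1107, 966 and 646 RPM in Li and 452, 657 and 165 in La. La2 just exceeded Li3 (difference -1.27, adjusted p = 0.32 from limma), and without La3 the difference was -0.70 and did not pass, as it did not without Li1, Li2 or La1. peu-miR2916 had 2, 4 and 1 reads in Li and 0, 0 and 2 in La, which overlap, and ptc-miR6476a 0, 8 and 5 in Li and 0 in La. The call of peu-miR2916 was lost without Li1, Li2, La1 or La2.

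Predicted miRNAs, which have no name in miRBase, had 8 of 52 past the unadjusted threshold (15.4%, against 14.7% of all tested miRNAs), 6 of them higher and 2 lower. NW_011500334.1_29125 was the most abundant of the 8. Its precursor lies on the minus strand of scaffold NW_011500334.1 from 87284 to 87365 in PopEup_1.0, and no annotation of the position was used here. It was at 4876, 6952 and 4186 RPM in Li and 12040, 16622 and 22892 RPM in La, so that every La sample was above every Li sample. It rose by 1.67 (SE 0.34, adjusted p = 0.019 from limma), or 3.18-fold (95% interval 1.91 to 5.30). The adjusted p was above 0.05 without Li3 (0.11), La2 (0.061) or La3 (0.096), and also with only the 6 samples (0.073, or 0.10 with the replicate block) and without a variance trend (0.077). Its star sequence, the strand of the hairpin usually discarded, averaged 1047 RPM and differed by 0.43 (95% interval -0.49 to 1.35 in limma).

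Further predicted miRNAs on the higher side were scarce. NW_011499851.1_3625 (minus strand, 1282057 to 1282116 of scaffold NW_011499851.1) had 2, 5 and 3 reads in Li and 11, 11 and 21 in La, a pooled ratio of 4.39 (95% exact interval 2.17 to 9.79). Its groups did not overlap (difference 2.05, adjusted p = 0.14 from limma). NW_011500197.1_26944 (plus strand, 220353 to 220443 of scaffold NW_011500197.1) had 6, 2 and 12 reads against 27, 9 and 42, a pooled ratio of 3.98 (2.41 to 6.87), and its difference of 1.99 (adjusted p = 0.24 from limma) missed the unadjusted threshold without Li2 (1.27) or La3 (1.61). NW_011500147.1_25812 (plus strand, 171855 to 171920 of scaffold NW_011500147.1) had 5, 6 and 4 reads against 10, 16 and 17, a ratio of 2.93 (1.59 to 5.67). It was higher by 1.47 (adjusted p = 0.27 from limma), while the sequence listed as its star, at a mean of 1853 RPM far more abundant than the listed mature one, differed by 0.17 (95% interval -0.63 to 0.97 in limma). Without Li3, La2 or La3 the mature one missed the unadjusted threshold.

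Better covered but outside the naming rule, and so chosen after their values were seen, were NW_011499883.1_9795 and NW_011500067.1_22368. The former was at 81.0, 88.9 and 135 RPM in Li and 220, 298 and 279 in La, well apart (difference 1.40, adjusted p = 0.13 from limma). The latter was at 1844, 1333 and 2848 RPM in Li and 3140, 3918 and 6318 in La (difference 1.16, adjusted p = 0.14 from limma). Its La1 value was only a little above Li3. On the lower side NW_011500297.1_28413 (plus strand, 159247 to 159292 of scaffold NW_011500297.1) was at 382, 285 and 366 RPM in Li and 211, 153 and 133 in La, without overlap (difference -1.07, adjusted p = 0.28 from limma). Its star sequence had 18, 22 and 21 reads in Li and 7, 10 and 0 in La, also without overlap (difference -2.67, 95% interval -5.38 to 0.05 in limma). The mature sequence missed the unadjusted threshold without Li3, La2 or La3. The other lower one, NW_011500300.1_28478, chosen after its values were seen, had 6, 41 and 34 reads in Li and 4, 13 and 0 in La, which overlap. Its difference of -2.80 was -1.30 without La3 and -4.12 without La2, and it missed the unadjusted threshold without Li2, Li3, La1 or La3.

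The 22 tested star sequences held 0 calls by limma at the unadjusted threshold (against 14.7% of all tested). For 39 precursors with both arms tested, the arms differed in the same direction in 26 and in opposite directions in 13. Where both arms reached 10 RPM on average, 20 of 27 had the same direction. In 7 pairs 1 arm passed the unadjusted threshold and in 0 pairs both did. The widest split among these 7 was ptc-miR167f, whose 5p arm differed by -1.06 and 3p arm by 1.90.

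Most reads came from miRNAs that did not pass the adjusted threshold. The 10 most abundant miRNAs made up 77.9% ± 1.41 of the reads in Li and 79.4% ± 2.42 in La (SD, n = 3), and of these 10 only ptc-miR395b passed the adjusted threshold. ptc-miR6445a, on this list, was at 42764, 37576 and 32434 RPM in Li and 25122, 45300 and 13733 in La, a La range that spans all Li values (difference -0.58, 95% interval -1.51 to 0.35 in limma). NW_011499886.1_10127, a predicted miRNA on the plus strand of scaffold NW_011499886.1 from 836223 to 836308, was at 25479 ± 6889 RPM in Li and 26444 ± 3812 in La (SD, n = 3), and its difference of 0.08 changed sign without Li2, Li3 or La1. By level, 10 of 46 miRNAs with means of at least 1000 RPM passed the unadjusted threshold (21.7%), 7 of 54 between 100 and 1000 RPM (13.0%) and 15 of 117 below 100 RPM (12.8%).

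**Figure D4:**
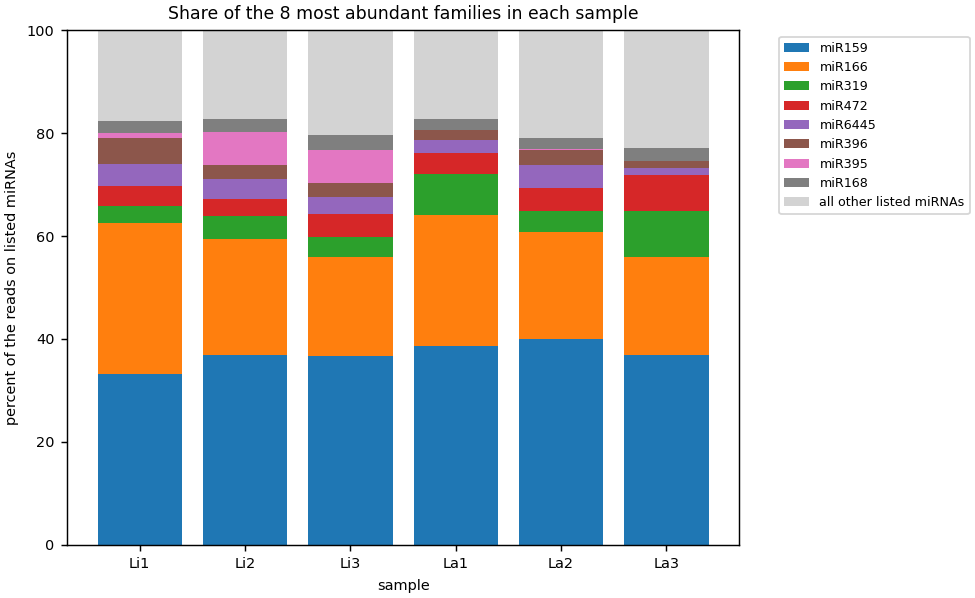
Stacked bars give the percent of reads on listed miRNAs taken by the 8 most abundant families in each of the 6 samples. The miR395 band is thick in Li2 and Li3 (6.49% and 6.46%), thin in Li1 (0.988%) and hardly visible in La, while miR319 is widest in La1 (8.00%) and La3 (8.92%).

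The values are shares of a common total, and miR395 took a smaller part of it in La. With the total taken without the miR159 and miR395 families, 31 miRNAs passed the unadjusted threshold, 17 of them higher, and 4 passed the adjusted one.

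Few miRNAs were seen in a single leaf type. Of the 257, 209 had a read in both, 17 in Li only and 13 in La only, and those of La only had at most 4 reads in the 3 libraries together. Among those of Li only ptc-miR6476a had 13 reads, and no other had more than 4. With 3 reads assumed over the 3 La libraries its Li/La fold was 4.25, which takes the 13 Li reads as exact. The 95% exact interval of its pooled Li/La read ratio began lower, at 2.99. Li1 had no read of ptc-miR6476a either. The fold at 3 assumed La reads was 2.62 without Li2, 2.59 without La1 and 2.68 without La3. The call of ptc-miR6476a was lost under 8 of 16 alternatives, among them those without Li2, Li3, La1, La2 or La3. The mean SD between replicates was 0.884 in Li and 0.895 in La on the log2 scale, and 0.586 and 0.725 over the miRNAs with means of at least 100 RPM. Li1 was the sample farthest from its group median for 104 of 217 miRNAs, where ties that included Li1 were counted for it. Some large differences were therefore within the spread. ptc-miR6421-3p, chosen after its values were seen, was at 3441, 1934 and 1610 RPM in Li and at 9.19, 5414 and 67.9 RPM in La, and its difference of -3.82 did not pass (95% interval -8.14 to 0.50 in limma). In ptc-miR1447, also chosen in this way, Li3 alone was high, at 11741 RPM against 665 and 383 in the other Li samples and 452, 276 and 213 in La, and its difference of -2.27 did not pass.

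The later leaf types were set beside this first step. Of the 18 miRNAs higher in La, the Ov mean was also above the Li mean for 18 and the Bo mean for 17. For the 14 lower ones these numbers were 14 and 10. These comparisons share the Li samples by which the miRNAs were called, and no share over all tested miRNAs is set beside them. Same-numbered La and Ov samples also deviated together (correlations 0.23, 0.52 and 0.51), so Ov is not a separate look at La. The counts are a description. The level of ptc-miR395b was 719 ± 97.4 RPM in Ov and 496 ± 230 in Bo, and that of NW_011500334.1_29125 was 14793 ± 5215 and 13064 ± 2733 (SD, n = 3), near the La level in each case. By contrast ptc-miR399f was at 437 ± 188 RPM in Ov and 890 ± 239 in Bo, and ptc-miR390a at 8775 ± 3184 and 14547 ± 474 (SD, n = 3), so that their lowest mean was in La. miR156 and NW_011500067.1_22368 went on in the direction of the first step, with a mean summed miR156 level of 1000 RPM in Ov and 240 RPM in Bo, and 7121 ± 689 RPM in Ov and 16467 ± 5551 in Bo for the latter (SD, n = 3).

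Whether the step from Li to La differed from the last step, from Ov to Bo, was tested as a contrast of 4 groups, and these steps share no sample. Same-numbered La and Ov samples deviated from their group means together, however (correlations over miRNAs 0.23, 0.52 and 0.51). The difference between the steps passed the unadjusted threshold for 41 of 217 miRNAs (18.9%) and the adjusted one for 5 (2.30%). For ptc-miR395b the first step differed from the last by -4.89 on the log2 scale, with -5.51 against -0.62 (adjusted p = 0.015 from limma). For ptc-miR399f the steps went opposite ways, -2.10 and 1.10 (difference -3.21, adjusted p = 0.035 from limma). This difference missed the adjusted threshold in 10 of 16 alternatives, and the last step of 1.10 was not tested by itself. NW_011500122.1_25017 (plus strand, 327843 to 327911 of scaffold NW_011500122.1) was at 284, 91.2 and 140 RPM in Li and 296, 489 and 89.7 in La, overlapping values, and was lower at the last step (0.61 and -5.99, adjusted p = 0.015 from limma). The count of 5 was 10 with the replicate number as a block, and 0 without Li2, without Li3 or without La1.

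**Figure D5:**
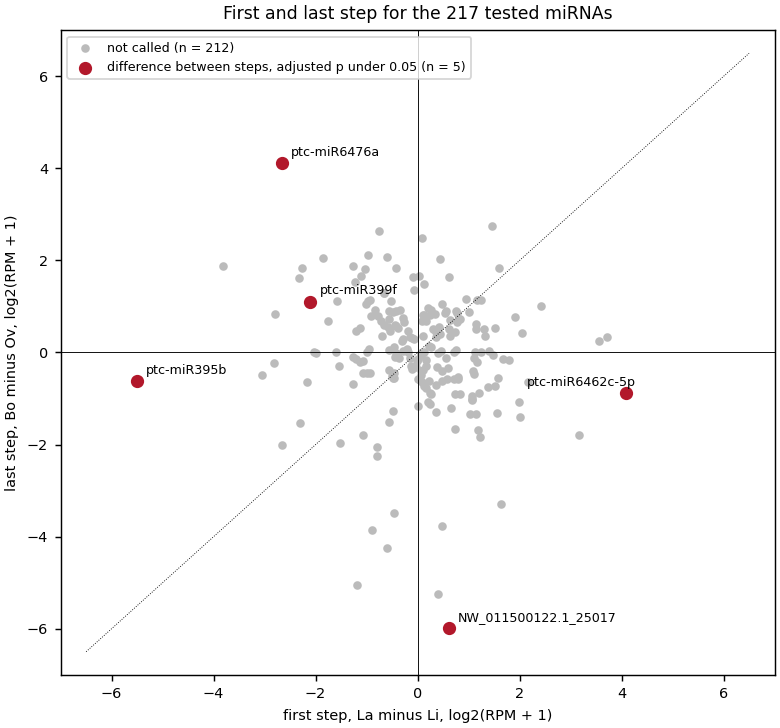
Each point is a tested miRNA, with its La minus Li difference on the x axis and its Bo minus Ov difference on the y axis, both in log2(RPM + 1), and the dotted line marks equal steps. The 5 red points, whose steps differed past the adjusted threshold, lie far from that line, ptc-miR395b at -5.51 and -0.62 and ptc-miR6462c-5p at 4.09 and -0.88.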

How the data were processed

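The authors matched reads exactly to miRBase v.21, used miRDeep2 (version not given in the sources used here) to find unannotated miRNAs and stars on scaffolds named as in PopEup_1.0, and deposited 1 table per sample. The deposited values, named TPM by the authors, are RPM: every column sums to 1000000 over the 257 miRNAs, and all values were whole multiples of the smallest, within 0.001, which was taken as 1 read. Depth, read ratios and exact intervals come from these reads, but no count model was run. A check set for this work asked for 100 miRNAs at 1 to 20 reads per sample before values were modelled as counts. Each sample had fewer. The limit of 100 was a choice made here, not a condition of such models.

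miRNAs that averaged 1 RPM or more across the 6 La and Li samples were tested with limma 3.58.1 (R 4.3.3) with a variance trend on log2(RPM + 1), all 12 samples in 4 group means, P values 2-sided and adjusted by Benjamini-Hochberg over all tested miRNAs or families. The fit was tested on simulated data. Tables and figures used Python 3.11.15, numpy 2.4.6, pandas 2.3.3, scipy 1.17.1 and matplotlib 3.10.9. Within the Li group and within the La group no libraries were copies of each other. Other pairs of libraries were not compared in this way.

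Named miRNAs were those past the adjusted threshold; up to 10 in each direction with the largest difference, P under 0.05, no overlap and a group mean of at least 10 RPM; the 10 most abundant; members that carry families past the threshold; other arms of these; and the 3 with the smallest P between steps. Members and lists were chosen with earlier results of these data known. Alternatives were other pseudocounts (0.1 and 10), filters, scalings, only the 6 samples, a replicate block, no variance trend and each sample left out. For the La/Li calls of single miRNAs and families only La and Li samples were left out, up to 17 alternatives in all. miRNA sequences were not used here.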

Additional observations from a re-analysis of the deposited data

Results flagged for a closer look

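The step from Li to La and the step from Ov to Bo differed past the adjusted threshold of limma for 5 miRNAs, and their values are given without an explanation. For ptc-miR395b the first step minus the last was -4.89 on the log2 scale (-5.51 and -0.62, adjusted p = 0.015). For ptc-miR399f it was -3.21 (-2.10 and 1.10, adjusted p = 0.035). For ptc-miR6462c-5p the steps were 4.09 and -0.88, a difference of 4.97 (adjusted p = 0.037). For NW_011500122.1_25017 the difference was 6.60 (0.61 and -5.99, adjusted p = 0.015), with 0, 1 and 1 reads in the Bo samples. ptc-miR6476a had no read in any La or Ov sample, and its difference of -6.79 (-2.67 and 4.12, adjusted p = 0.037 from limma) depends on the pseudocount. Of 16 alternatives each, the adjusted threshold was missed in 3 for ptc-miR395b and in 4 for NW_011500122.1_25017. It was missed in 10 for ptc-miR399f and in 11 each for ptc-miR6462c-5p and ptc-miR6476a. No test for a single high or low sample was made, since each group held 3.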

How the results depend on the processing

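The unadjusted miRNA count of 32 was 21 to 32 with each sample left out (21 without La3) and 27 to 36 under the other alternatives. The adjusted count of 4 was 2 with only the 6 samples, 2 without a variance trend and 1 to 10 with a sample left out. The unadjusted family count of 16 was 13 to 18 with a sample left out, and the adjusted one of 4 was 2 with only the 6 samples and 1 to 7 with a sample left out. The count of 5 between steps was 1 with a pseudocount of 10 and 0 to 6 with a sample left out; at 0 limma still had miRNAs past the unadjusted threshold. Of the 32 miRNAs, 12 kept their call under every alternative counted, 20 lost it under at least 1, and 0 reversed. Ov and Bo samples were not left out for this count. Near 0, the difference of ptc-miR166a (0.06) was -0.013 with RLE scaling and -0.032 to 0.21 with a sample left out, and that of NW_011499886.1_10127 (0.08) was -0.031 to 0.29. RLE scaling moved the median of all miRNAs from 0.08 to 0.00, with 15 of 32 higher. The causes were not tested. Replicate numbers did not pair La and Li samples (correlations of deviations -0.01, 0.07 and -0.06). A replicate block gave 4 adjusted miRNAs (35 unadjusted) and 9 families with all 12 samples, 1 and 1 with only the 6, and 10 between steps. Same-numbered La and Ov samples did deviate together (0.23, 0.52 and 0.51), and the other pairs of leaf types did not in all 3 numbers. Count models were not run. With 1 read worth 2.30 to 3.73 RPM, values at a few reads have wide counting error.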
